A study of Homo sapiens with 3 samples.

Results

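The miR-320 family was followed through small RNA libraries of 3 HCCLM3 strains. HCCLM3 is an established human line from liver cancer (hepatocellular carcinoma, HCC). The family members were every name made of hsa-miR-320 and a letter from a to e in the deposited tables, which gave 5 of the 1921 miRNA names listed. Of these, 4 names (hsa-miR-320a, hsa-miR-320b, hsa-miR-320c and hsa-miR-320d) had counts in every library. The remaining name, hsa-miR-320e, had 1 count, in subclone2, and 0 in the other libraries. The parent strain was labelled as having low metastasis, whereas the paper counts HCCLM3 among the lines that spread readily. Subclone1 was labelled for raised spread to the lung alone, and subclone2 for spread to the lung together with the celiac lymph node. All strains were cultured in DMEM with no treatment named, and 1 library was made from each. The paper describes no small RNA sequencing, and its lines were taken to be these strains from the line name and the tropisms. There, clonal lines were grown from single cells of lung or lymph node metastases that a fluorescent HCCLM3 derivative had formed in nude mice. A subclone of that kind is 1 clone, and which of the clones was sequenced is not stated in its labels.

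Most miRNAs are cut from a long primary transcript by the nuclear enzyme Drosha and its partner DGCR8, and the resulting hairpin is then trimmed to its mature length by Dicer. The miR-320 hairpin is known as an exception to the first step. Its transcript starts at the 5′ end of the hairpin itself, carries a methylguanosine cap and leaves the nucleus through the export receptor XPO1, so that only Dicer is needed, and only the 3′ arm is loaded onto Argonaute proteins. This route was worked out on the hairpin of miR-320a and on its mouse counterpart. The counts measure mature strands and hold no measurement of precursors, caps or Drosha, so the route could not be checked here. The tables listed no separate 5p or 3p name for any member.

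The mature strands are shown because the members differ at so few bases that the reads of one can be taken for those of another. Part of the RefSeq table (GRCh38.p14) was set aside before the search, and hsa-miR-320a lies in that part. Its absence below is therefore no property of RefSeq. The entries that were searched held the other 4 of the 5 names. They are given 5′ to 3′, with the seed, bases 2 to 8, in capitals.
hsa-miR-320b: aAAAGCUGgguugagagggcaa
hsa-miR-320c: aAAAGCUGgguugagagggu
hsa-miR-320d: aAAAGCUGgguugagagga
hsa-miR-320e: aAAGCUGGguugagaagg
The seed AAAGCUG was common to hsa-miR-320b, hsa-miR-320c and hsa-miR-320d. The mature strand of hsa-miR-320e begins 1 base further in, which makes its seed AAGCUGG. With positions counted from 1 at the 5′ end of hsa-miR-320b, hsa-miR-320c differs by C20U and ends after 20 bases, and hsa-miR-320d differs by G19A and ends after 19 bases. hsa-miR-320e carries G17A. The first 18 bases of hsa-miR-320b and hsa-miR-320d are therefore the same, and a read must extend past them to be told apart. hsa-miR-320b and hsa-miR-320c share a run of 19 bases.

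As hsa-miR-320a was not among the RefSeq entries searched, whether it carries the seed AAAGCUG was not checked here. Among the 2370 mature names that were searched, 4 carried this seed. The name outside the family was hsa-miR-4429, singled out after its sequence was seen.
hsa-miR-4429: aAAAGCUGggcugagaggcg
It differs from hsa-miR-320b by U11C, G19C and C20G. It had 1 count in the parent and 0 in each subclone. The search covered the 1576 of 1921 listed names that these RefSeq entries hold.

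The hairpins of the same members are shown to place the mature strand, in capitals, within its precursor. In every hairpin it lies in the 3′ arm, followed by 9 to 12 further bases.
MIR320B1 (chr1:116671746-116671817, plus strand): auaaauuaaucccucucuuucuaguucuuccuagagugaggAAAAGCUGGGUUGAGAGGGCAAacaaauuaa
MIR320B2 (chr1:224257040-224257110, minus strand): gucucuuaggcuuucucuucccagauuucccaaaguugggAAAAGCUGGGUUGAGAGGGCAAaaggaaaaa
MIR320C1 (chr18:21683518-21683589, plus strand): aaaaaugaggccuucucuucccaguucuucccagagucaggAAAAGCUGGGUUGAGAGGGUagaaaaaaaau
MIR320C2 (chr18:24321675-24321746, plus strand): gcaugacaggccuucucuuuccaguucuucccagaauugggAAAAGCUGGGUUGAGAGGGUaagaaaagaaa
MIR320D1 (chr13:40727816-40727887, minus strand): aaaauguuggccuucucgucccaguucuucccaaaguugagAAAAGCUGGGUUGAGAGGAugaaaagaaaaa
MIR320D2 (chrX:140926160-140926231, minus strand): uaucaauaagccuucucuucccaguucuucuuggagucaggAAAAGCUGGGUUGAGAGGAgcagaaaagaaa
MIR320E (chr19:46709282-46709354, minus strand): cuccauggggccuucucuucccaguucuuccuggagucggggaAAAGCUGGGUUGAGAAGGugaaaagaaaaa
hsa-miR-320b, hsa-miR-320c and hsa-miR-320d are each made from 2 hairpins whose mature strands cannot be distinguished, so a count cannot be traced to its locus. Outside the mature strand the hairpins were less alike, with pairwise identities over the whole precursor from 70.8% to 83.8% (median 78.1% of 21 pairs). Over the 22 bases that hsa-miR-320b spans, MIR320C2 differed from it at 1 base and MIR320C1 at 2. MIR320D1, MIR320D2 and MIR320E each differed at 3.

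The family is scattered over the genome. By GENCODE release 29, 2 of the 8 hairpins lie in introns on the strand of their host gene, MIR320B2 in NVL and MIR320E in PRKD2. MIR320C1 and MIR320C2 lie in introns of ABHD3 and OSBPL1A on the opposite strand. The other 4 overlap no annotated gene. Among them, MIR320A (chromosome 8, 22244966 to 22245037, minus strand) lies 67 bases from POLR3D, a subunit gene of RNA polymerase III, which runs in the opposite direction. MIR320D1 lies 1248 bases from MRPS31, MIR320B1 3991 bases from IGSF3 and MIR320D2 76360 bases from SPANXB1. All these positions are those of the annotation, as the count tables carry none.

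The libraries held 3570864 counts (subclone1), 4568075 (subclone2) and 7902438 (parent). Values are given as counts per 1000000 of the library total (CPM), with exact 95% binomial intervals that cover counting error only. As 1 library stands for each strain, no difference below has a replicate check and no p-value is given. Markers of the labelled cell type were mixed. Of the hepatocyte miRNAs, miR-192 had 18528 parental CPM, 60248 CPM in subclone1 and 69069 CPM in subclone2, and miR-194 had 113, 278 and 275 CPM. Such a rise takes a larger part of the total against which every miRNA is scaled, and its part in the ratios of the miR-320 members was not tested apart from the other scalings. By contrast, miR-122 had only 3.94 to 6.71 CPM and miR-885 had 0 counts in every library. Of the epithelial miRNAs, miR-200c had 26.6, 37.8 and 38.1 CPM in the same order, and miR-141 had 2.28, 1.12 and 3.28 CPM (18, 4 and 15 counts). The 6 markers of blood, endothelial and stromal cells together had 18, 17 and 10 counts in the parent, subclone1 and subclone2.

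hsa-miR-320a made up most of the family and was among the leading miRNAs of every strain. It had 178371 parental counts, 81308 in subclone1 and 116673 in subclone2. This was 22572 CPM in the parent, with a 95% interval of 22468 to 22675. Subclone1 had 22770 CPM (22615 to 22925) and subclone2 had 25541 CPM (25397 to 25686). The level was thus nearly the same in the parent and in subclone1 and higher in subclone2. For the higher level, more expressing cells and more RNA per cell could not be told apart in such lysates. By count it ranked 9 of 743 detected names in the parent. It ranked 9 of 670 in subclone1, against 8 of 675 in subclone2. The ranks compare different miRNAs and carry the ligation bias of the library kit.

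Its neighbours in this order changed between strains. In the parent hsa-miR-320a stood between hsa-let-7g-5p (25765 CPM) and hsa-let-7c (19208 CPM). In subclone1 it stood between hsa-miR-221-3p (23187 CPM) and hsa-miR-29a-3p (20380 CPM), and in subclone2 between hsa-miR-21-5p (32945 CPM) and hsa-let-7c (21628 CPM). No counting interval of a neighbour overlapped that of hsa-miR-320a, but there is no replicate spread to set beside these gaps.

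hsa-miR-320b, which is made from 2 loci on chromosome 1, had 11706 parental counts, 5220 in subclone1 and 8404 in subclone2. Its level was 1481 CPM (1455 to 1508), 1462 CPM (1422 to 1502) and 1840 CPM (1801 to 1879) in the same order. hsa-miR-320c, from 2 loci on chromosome 18, had 1862, 849 and 1368 counts, or 236 CPM (225 to 247), 238 CPM (222 to 254) and 299 CPM (284 to 316). For both members the parent and subclone1 lay inside each other's intervals and subclone2 above them. hsa-miR-320d, from chromosomes 13 and X, had 312, 133 and 220 counts. Its parental level of 39.5 CPM (35.2 to 44.1) overlapped with the 37.2 CPM (31.2 to 44.1) of subclone1 and the 48.2 CPM (42.01 to 54.96) of subclone2. hsa-miR-320e, with its shifted seed, lay at the limit of detection, where a count of 0 allows up to 0.380 CPM in the parent and 0.840 CPM in subclone1 (3 counts of the total). The upper ends of the exact 95% intervals were 0.467 and 1.03 CPM. No difference in hsa-miR-320e was detectable at this depth.

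**Figure D1:**
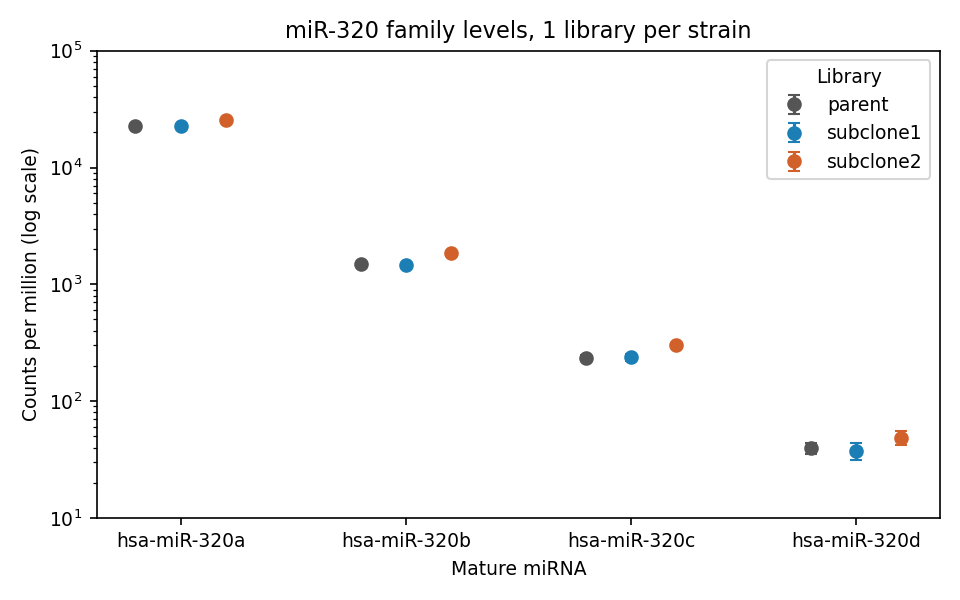
Levels of hsa-miR-320a, hsa-miR-320b, hsa-miR-320c and hsa-miR-320d in CPM (vertical log axis) in the parent (grey), subclone1 (blue) and subclone2 (orange), 1 library each; bars are exact 95% binomial intervals for counting error. The members descend from 25541 to 37.2 CPM in the same order in every library, and subclone2 is the highest point of each group. hsa-miR-320e is not drawn.

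The order of the members was the same in every library, with each well clear of the next. hsa-miR-320a, from 1 hairpin, held 92.8% of the parental family counts (92.7 to 92.9). Its share was 92.9% in subclone1 (92.7 to 93.1), and that of subclone2 was 92.1% (91.96 to 92.3). hsa-miR-320b held 6.09% (5.98 to 6.20), 5.97% (5.81 to 6.12) and 6.63% (6.50 to 6.77). hsa-miR-320c held 0.969%, 0.970% and 1.08%, and hsa-miR-320d 0.162%, 0.152% and 0.174%. The 6 hairpins that encode hsa-miR-320b, hsa-miR-320c and hsa-miR-320d together gave 76.3 to 85.6 counts for 1000 counts of hsa-miR-320a. How the authors divided reads that fit several members is not given in the sources used here, and the shares depend on it.

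To compare the members without any scaling between libraries, each minor member was set against hsa-miR-320a within the same library. For 1000 counts of hsa-miR-320a the parent had 65.6 counts of hsa-miR-320b (64.4 to 66.9), subclone1 64.2 (62.4 to 66.02) and subclone2 72.03 (70.4 to 73.6). The corresponding values for hsa-miR-320c were 10.4 (9.97 to 10.9), 10.4 (9.75 to 11.2) and 11.7 (11.1 to 12.4). For hsa-miR-320d they were 1.75 (1.56 to 1.95), 1.64 (1.37 to 1.94) and 1.89 (1.64 to 2.15). Against hsa-miR-320a, hsa-miR-320b and hsa-miR-320c stood higher in subclone2, while the intervals of hsa-miR-320d overlapped in all libraries.

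The ratio of hsa-miR-320b to hsa-miR-320a in subclone2 was 1.098 times that in the parent, with an exact conditional 95% interval of 1.07 to 1.13, and 1.12 times that in subclone1 (1.08 to 1.16). For hsa-miR-320c the same ratios were 1.12 (1.05 to 1.21) and 1.12 (1.03 to 1.23). For hsa-miR-320d they were 1.08 (0.903 to 1.29) and 1.15 (0.925 to 1.44), with intervals that include 1. Between subclone1 and the parent, all 3 intervals included 1, with ratios of 0.978 (0.946 to 1.01) for hsa-miR-320b, 1.0003 (0.921 to 1.09) for hsa-miR-320c and 0.935 (0.757 to 1.15) for hsa-miR-320d. These intervals compare libraries by their counts and say nothing of the spread between cultures of a strain.

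The minor members kept nearly fixed proportions among themselves. For 1000 counts of hsa-miR-320b the parent had 159 counts of hsa-miR-320c and each subclone 163. The count of hsa-miR-320d for 1000 of hsa-miR-320b was 26.7, 25.5 and 26.2. All 6 ratios of these values between libraries had intervals that include 1, from 0.956 (0.772 to 1.18) for hsa-miR-320d in subclone1 over the parent to 1.03 (0.822 to 1.29) for hsa-miR-320d in subclone2 over subclone1. The interval for hsa-miR-320c was narrower, at 1.02 (0.948 to 1.10) in subclone2 over the parent. In subclone2 the intervals thus set hsa-miR-320b and hsa-miR-320c apart from hsa-miR-320a. They set hsa-miR-320c apart from hsa-miR-320b in no comparison, and hsa-miR-320d from neither hsa-miR-320a nor hsa-miR-320b. The strand of hsa-miR-320a was not among the sequences compared above. These ratios too depend on how reads that fit several members were divided, and its part in them was not tested.

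**Figure D2:**
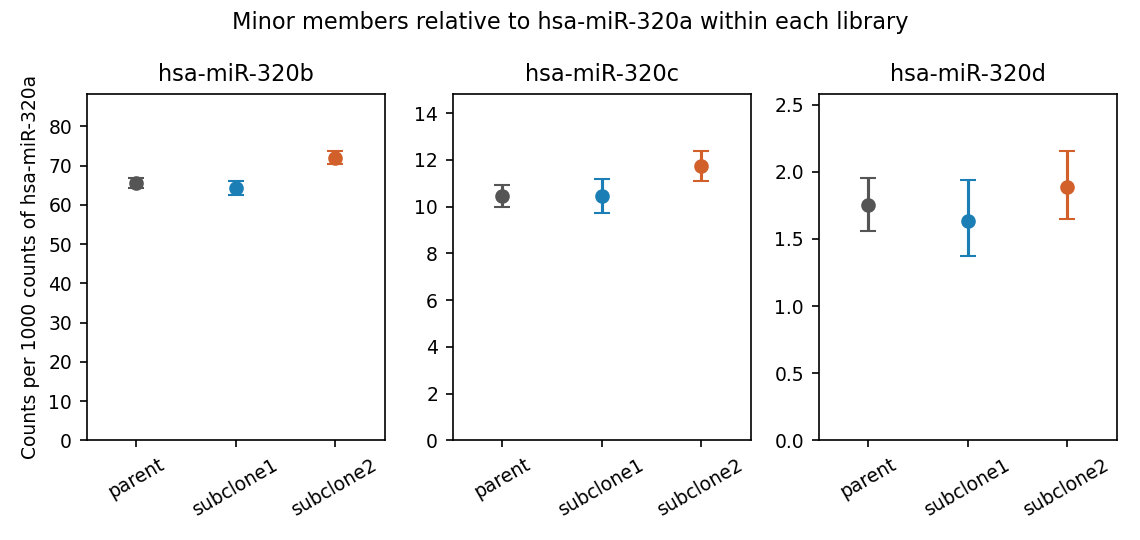
Counts of hsa-miR-320b, hsa-miR-320c and hsa-miR-320d for 1000 counts of hsa-miR-320a in the same library (vertical axes, each from 0), by library; bars are exact 95% binomial intervals for counting error. For hsa-miR-320b and hsa-miR-320c the subclone2 point lies above the others, at 72.03 against 65.6 and 64.2 and at 11.7 against 10.4 and 10.4, while the 3 intervals of hsa-miR-320d overlap.

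These shifts within the family were set beside those between all pairs of other kept miRNAs, which include members of other families and clusters. In subclone2 against the parent, the log2 ratios of hsa-miR-320b and hsa-miR-320a differed by 0.13 and those of hsa-miR-320c and hsa-miR-320b by 0.03. Over the 16653 pairs of other miRNAs kept in that comparison, the median difference was 0.48. A smaller difference than that of hsa-miR-320b and hsa-miR-320a was found in 16.0% of pairs, and a smaller one than that of hsa-miR-320c and hsa-miR-320b in 3.98%. The widest difference within the family in that comparison was 0.17, of hsa-miR-320c and hsa-miR-320a (19.8% of pairs smaller). Between the subclones it was 0.20, of hsa-miR-320d and hsa-miR-320a (27.9% of 17391 pairs smaller). Pairs that hold a miRNA with few counts differ more by counting error alone, and members whose reads can be exchanged would differ less, so these shares are a description of the tables.

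For the lung-tropic strain, the question was whether any member differed between subclone1 and the parent. A miRNA was kept where its CPM averaged 10 or more over both libraries, and a miRNA was called when the ratio reached 2-fold and its exact conditional interval excluded 1. None of the 4 kept members was called, where the same rule called 25 of 192 kept miRNAs (13.0%). The log2 ratio of CPM was 0.01 for hsa-miR-320a (0.0006 to 0.02), -0.02 for hsa-miR-320b (-0.07 to 0.03), 0.01 for hsa-miR-320c (-0.11 to 0.13) and -0.08 for hsa-miR-320d (-0.39 to 0.21). Over all kept miRNAs the median was 0.02. The summed family had 24328 CPM in the parent and 24507 CPM in subclone1, a log2 ratio of 0.01 (-0.001 to 0.02). Of 188 other kept miRNAs, 3 had a ratio nearer to 0 than this sum. The sign of hsa-miR-320a, hsa-miR-320c and the sum turned negative under the other scalings, and no direction is drawn from them.

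For the strain with tropism to lung and lymph node, subclone2 was compared with the parent. Again 0 of the 4 kept members were called, beside 20 of 187 kept miRNAs (10.7%). All 4 ratios were above 0 with intervals excluding it. The log2 ratio of CPM was 0.18 for hsa-miR-320a (0.17 to 0.19), 0.31 for hsa-miR-320b (0.27 to 0.35), 0.35 for hsa-miR-320c (0.24 to 0.45) and 0.29 for hsa-miR-320d (0.03 to 0.54). The summed family had 27729 CPM, 1.14 times its level in the parent (log2 0.19, interval 0.18 to 0.20). All kept miRNAs had a median of -0.15, which TMM scaling (trimmed mean of M-values) moved by 0.17. With that scaling the family sum had a log2 ratio of 0.36. Relative to that median the family sum was at 0.34 and its members between 0.33 and 0.50. Of 183 other kept miRNAs, 64 had a log2 ratio nearer to 0 than the family sum.

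The labels set subclone2 apart from subclone1 by the celiac lymph node. With 1 library of each, other differences between these strains cannot be told apart from this tropism. The comparison of subclone2 with subclone1 gave much the same values, which are not separate evidence as subclone2 enters both. Here too 0 of 4 kept members were called, beside 11 of 191 kept miRNAs (5.76%). The log2 ratio was 0.17 for hsa-miR-320a (0.15 to 0.18), 0.33 for hsa-miR-320b (0.28 to 0.38), 0.33 for hsa-miR-320c (0.21 to 0.46) and 0.37 for hsa-miR-320d (0.05 to 0.69). The family sum had a log2 ratio of 0.18 (0.17 to 0.19), against a median of -0.17 over all kept miRNAs, which TMM scaling moved by 0.23. The sum was therefore 0.34 above the median in this comparison, and its log2 ratio with TMM scaling was 0.41. Each of the 4 kept members was higher in subclone2 than in either other library under all 4 scalings tried, by less than 2-fold.

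The spread of each member over the strains was taken as its highest over its lowest CPM. It was 1.13 for hsa-miR-320a, 1.26 for hsa-miR-320b, 1.27 for hsa-miR-320c and 1.29 for hsa-miR-320d, against a median of 1.46 over 188 other miRNAs that averaged 10 CPM or more. Only 19 of these 188 had a smaller spread than hsa-miR-320a. Among the other 19 of the 20 most abundant miRNAs, 7 had a smaller one. The place of hsa-miR-320a depends on the scaling. With TMM factors its spread was 1.32, and 72 of the 188 had a smaller one. The spreads of the minor members then lay at or above the median of 1.43, from 1.48 for hsa-miR-320b to 1.52 for hsa-miR-320d.

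**Figure D3:**
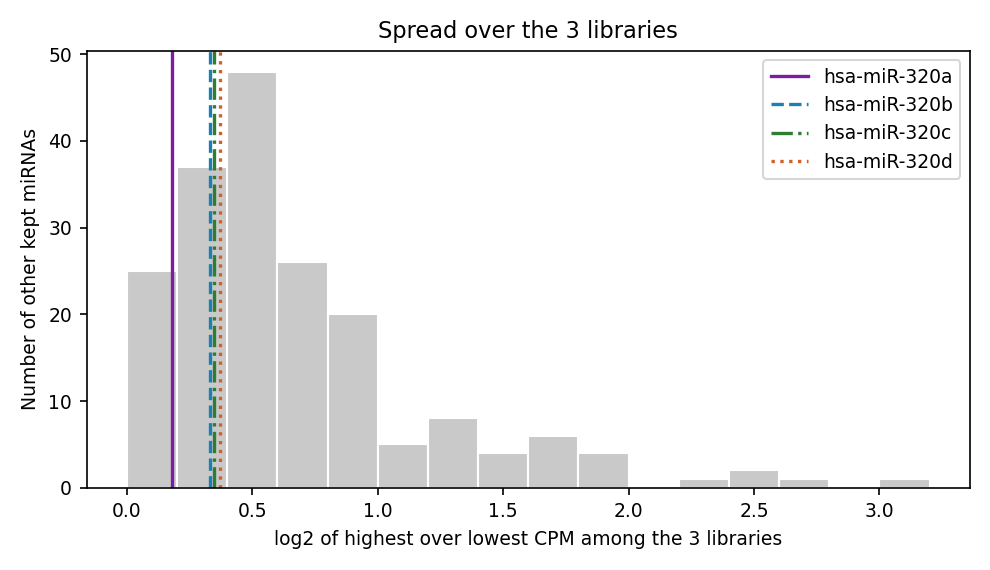
Number of other miRNAs that averaged 10 CPM or more (vertical axis) by the log2 of their highest over lowest CPM among the 3 libraries (horizontal axis); lines mark the miR-320 members. hsa-miR-320a, with a ratio of 1.13, lies at the low end of the distribution, and the other members, from 1.26 to 1.29, lie below its median of 1.46.

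The miRNAs whose pair of ratios against the parent lay nearest to that of the family sum were then found among the same 188. The distance was Euclidean on the log2 scale over both subclones. The nearest was hsa-let-7c, with log2 ratios of 0.03 in subclone1 and 0.17 in subclone2 (distance 0.02). It was followed by hsa-miR-92b-3p (-0.05 and 0.19), hsa-miR-365b-5p (-0.04 and 0.25), hsa-miR-664-5p (0.04 and 0.11) and hsa-let-7a-5p (0.07 and 0.10). The likeness rests on 3 libraries that share 1 parent, and miRNAs with ratios near 0 in both subclones are close to each other by construction.

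Other miRNAs listed under routes that bypass Drosha were compared with the family. The route of each name was taken from the list and was not checked here. The list held hsa-miR-484 and hsa-miR-3615, whose precursors are capped like that of miR-320, mirtrons, which are short introns released by splicing, and miRNAs cut from small nucleolar RNAs. Beside the family it held 23 names, of which 11 were detected and 3 kept. These names summed to 90.1 parental CPM, 86.3 CPM in subclone1 and 96.3 CPM in subclone2, and the miR-320 family held nearly all counts of the list. hsa-miR-484, below the minimum level and described after its values were seen, had 37, 16 and 13 counts, or 4.68 CPM (3.30 to 6.45), 4.48 CPM (2.56 to 7.28) and 2.85 CPM (1.52 to 4.87), with overlapping intervals. hsa-miR-3615 had 91, 47 and 55 counts, or 11.5, 13.2 and 12.04 CPM. Both capped names thus lay far below hsa-miR-320a by read count, a comparison between miRNAs that carries the ligation bias.

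Of the names listed as mirtrons, 5 of 17 were detected and only hsa-miR-877-5p was kept. It had 270 parental counts, 80 in subclone1 and 142 in subclone2, or 34.2 CPM (30.2 to 38.5), 22.4 CPM (17.8 to 27.9) and 31.1 CPM (26.2 to 36.6). Its log2 ratio of -0.60 in subclone1 against the parent (-0.99 to -0.24) fell short of 2-fold, whereas the miR-320 members stood between -0.08 and 0.01 in the same comparison. hsa-miR-1228-5p, also below the minimum and singled out after its values were seen, had 27, 28 and 44 counts, or 3.42 CPM (2.25 to 4.97), 7.84 CPM (5.21 to 11.3) and 9.63 CPM (7.0 to 12.9). Among the small nucleolar RNA names, all 4 were detected. hsa-miR-664-5p had 30.9, 31.6 and 33.3 CPM, and its intervals overlapped in all libraries.

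Over the whole list, 0 of 7 kept names were called in each comparison, beside the 13.0%, 10.7% and 5.76% of all kept miRNAs given above, so this count says little of the list. The median log2 ratio of the list was 0.01 for subclone1 over the parent and 0.18 for subclone2 over the parent. Between the subclones it was 0.33. With TMM scaling these values were -0.05, 0.35 and 0.56, and the second was 0.31 with a minimum of 100 CPM and 0.33 with no minimum. The minimum of 100 CPM left only hsa-miR-320a, hsa-miR-320b and hsa-miR-320c of the list, so that 0.31 is the ratio of hsa-miR-320b. Beside the values scaled to the total, the median over all kept miRNAs was 0.02, -0.15 and -0.17. As 4 of the 7 names were miR-320 members, the list median mostly repeats the family. Without them the median of the other 3 was 0.04, 0.07 and 0.07.

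**Figure D4:**
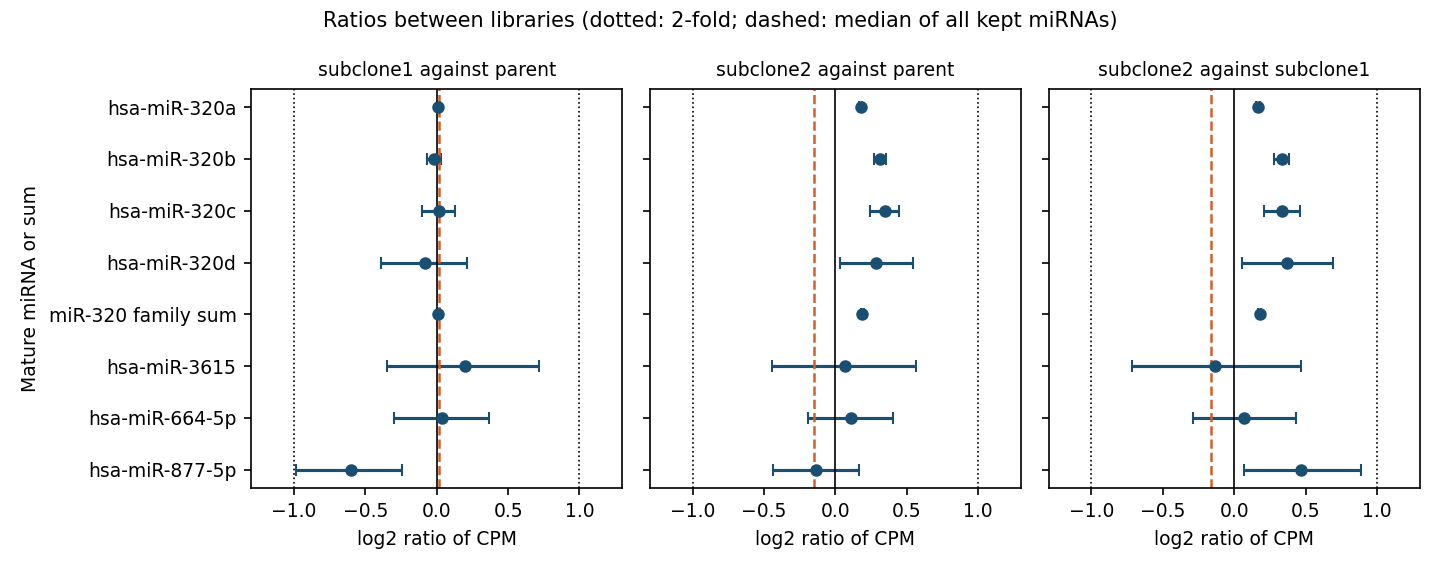
Log2 ratios of CPM (horizontal axes) of the miR-320 members, their sum and the 3 other kept names of the Drosha-independent list, in each comparison of 2 libraries. Bars are exact 95% conditional intervals for counting error. Dotted lines mark 2-fold and the dashed line the median of all kept miRNAs. All values stay inside 2-fold, and in both comparisons with subclone2 the miR-320 members lie to the right of the dashed line at -0.15 and -0.17.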

How the data were processed

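Small RNA of 3 HCCLM3 strains was sequenced after TRIzol extraction and TruSeq Small RNA library preparation from 1 ug of total RNA. The authors deposited raw read counts for each mature miRNA name, 1 library per strain. The submitters' processing notes name CASAVA 1.4 and hg19. Adapter trimming, aligner, mismatch limit, miRBase release and the treatment of reads that fit several miRNAs are not given in the sources used here.

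Each count was divided by its library total, with 0.5 counts added for log2 ratios. Intervals are Clopper-Pearson, conditional binomial (ratios) or Fisher's conditional (ratios within the family), at 95%, computed with scipy 1.17.1. A miRNA was called at 2-fold with an interval excluding 1. With 1 library per group no test between strains was possible. The procedure was tested on simulated data. TMM factors came from edgeR 4.0.16.

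Named miRNAs were the family, the list names kept at a mean of 10 CPM over the libraries, the markers, the 5 nearest patterns and the rank neighbours of hsa-miR-320a. Outside this rule, hsa-miR-484, hsa-miR-1228-5p and hsa-miR-4429 were named after their values were seen. The members and lists were chosen with earlier results of these data known. Sequences (without chromosome 8) and hairpin positions are from RefSeq (GRCh38.p14), and host genes from GENCODE release 29.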

Additional observations from a re-analysis of the deposited data

How the results depend on the processing

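No paired analysis was possible because a strain has only 1 library, so leaving libraries out was not possible either. Under every alternative 0 miR-320 members were called. Scaling moved the family sum beyond its narrow counting interval. Its log2 ratio in subclone1 against the parent was -0.051 (TMM), -0.056 (median of ratios) and -0.061 (total without the 10 most abundant of any library, 12 names in all, with hsa-miR-320a among them), and -0.016 without hsa-miR-320a. In subclone2 against the parent it was 0.36, 0.34, 0.26 and 0.32 in the same order, and in subclone2 against subclone1 0.41, 0.39, 0.32 and 0.33. The list median was -0.049, -0.054 and -0.059 under the 3 scalings in the first comparison, 0.35, 0.33 and 0.25 in the second and 0.56, 0.55 and 0.48 in the third. In the second it was 0.31 with a minimum of 100 CPM, which left only hsa-miR-320a, hsa-miR-320b and hsa-miR-320c, and 0.33 with no minimum.

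The calls over all kept miRNAs in the 3 comparisons were 56, 50 and 36 with a fold threshold of 1.5, 13, 13 and 5 with an interval wholly beyond 2-fold, 7, 5 and 2 with a minimum of 100 CPM, and 67, 75 and 33 with no minimum. The list then had 1 call in subclone1 with the lower fold threshold (hsa-miR-877-5p), and 3 calls in subclone1 and 1 in subclone2, both against the parent, with no minimum. With no minimum, hsa-miR-1228-5p was among the calls of both subclones. Between the subclones, 3 miRNAs were called higher and 5 lower with TMM and with median-of-ratios scaling, beside 3 and 8. Without hsa-miR-320a, hsa-miR-320b held 84.3%, 84.2% and 84.1% of the remaining family counts in the parent, subclone1 and subclone2. The scaling alternatives for the spread over libraries were chosen after seeing the data. Of the values recomputed, 121 stayed and 71 moved. A value stayed when it lay within its interval or, for counts of miRNAs and spreads over libraries, within 1.5 times. The family sum, hsa-miR-320a and hsa-miR-320c, none of them called, changed sign in subclone1 against the parent under the 3 other scalings. Depth limits hsa-miR-320d, whose intervals allow differences of up to log2 0.69 between the subclones, and hsa-miR-320e most.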
